A study of Mus musculus with 12 samples.

Results

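The genes described here are the receptors and ligands of the glial cell line-derived neurotrophic factor (GDNF) family in mouse tumours driven by EWSR1-ATF1, the fusion found in clear cell sarcoma. The 8 members, of 55536 genes in the deposited table, are the co-receptor genes Gfra1, Gfra2, Gfra3 and Gfra4, the signalling receptor gene Ret, and the ligand genes Gdnf, Nrtn and Artn. They were chosen by gene family, selected on the high level of Gfra1 in one group of tumours, so the Gfra1 difference between genotypes is given as a description without a test. All 8 had counts, and 7 passed the filter on low counts. Artn did not pass it and has values but no fitted fold change.

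RNA was sequenced from 11 tumours and 1 skeletal muscle after depletion of ribosomal RNA. The 5 translocation tumours have the genotype HprtCre; Ewsr1-loxP; Atf1-loxP, in which Cre from the Hprt locus can recombine loxP sites placed in both Ewsr1 and Atf1. The 6 Rosa26 tumours have the genotype Rosa26-LSL-EWSR1-ATF1, a fusion transgene in the Rosa26 locus that is silent until Cre acts, and their labels name no source of Cre. The muscle library is labelled WT. The labels describe no drug treatment, and they give no age, strain, tumour site or cell of origin.

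GDNF family ligands are secreted dimers that bind co-receptors held in the membrane by a lipid anchor. Each ligand prefers one co-receptor, Gdnf with Gfra1, Nrtn (neurturin) with Gfra2 and Artn (artemin) with Gfra3, and Gfra4 is the co-receptor of persephin. The complex then activates Ret, a receptor tyrosine kinase that has no high-affinity ligand of its own and signals through adaptors to the ERK and AKT pathways. The family is known for its part in kidney branching and in the development of enteric, motor and sympathetic neurons.

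For Gfra1 and Gdnf, the preferred receptor and ligand pair, the sequence before an annotated start is shown. The reason is that ATF1 belongs to the CREB family, whose members bind the cAMP response element (CRE). The sequences are those of RefSeq on GRCm38.p6 and cover the 250 bases before an annotated start, written in the direction of the gene, with capitals for the core CGTCA of the element. The Gfra1 window is on the minus strand at chr19:58455399-58455648, and the Gdnf window on the plus strand at chr15:7809798-7810047. In the GENCODE annotation used for positions, Gfra1 reaches 58455909, so its window lies inside the gene. The sequence before its outermost start was not searched. The Gdnf window ends before the GENCODE start at 7810846, and the bases just after its RefSeq start were in no GENCODE transcript of Gdnf.
Gfra1: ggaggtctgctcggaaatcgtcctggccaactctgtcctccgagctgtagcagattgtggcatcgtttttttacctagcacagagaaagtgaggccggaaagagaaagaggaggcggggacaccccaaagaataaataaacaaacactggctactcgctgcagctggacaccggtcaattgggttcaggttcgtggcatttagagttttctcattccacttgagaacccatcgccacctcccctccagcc
Gdnf: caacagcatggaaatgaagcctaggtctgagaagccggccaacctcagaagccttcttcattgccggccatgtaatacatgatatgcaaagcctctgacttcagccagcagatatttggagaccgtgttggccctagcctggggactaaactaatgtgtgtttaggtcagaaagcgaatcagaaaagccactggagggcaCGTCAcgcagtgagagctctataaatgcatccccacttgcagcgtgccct
Neither window held the full element TGACGTCA, which 1.55% of 32851 annotated windows of this length held. The core CGTCA, searched on both strands as CGTCA or TGACG and also part of the full element, was in 17.8% of windows. The Gdnf window held it 50 bases before the start, followed by the letters TATAAA 31 bases before the start. Those letters, searched in the direction of the gene only, were in 7.59% of windows. The Gfra1 window held neither the core nor TATAAA. A second annotated Gdnf start and those of Gfra4, Nrtn and Artn had no core. Only 5 of the 8 members had an entry, so Ret, Gfra2 and Gfra3 were not searched. A match is a description of these letters and not a binding site, and no match says only that the letters are absent from this window. The counts do not show which start was used.

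The tumour libraries held 2963088 to 21493629 counts and the muscle library 25037628. Levels are CPM, read counts relative to the total of each library, scaled by the TMM method within the 11 tumours unless stated. In translocation tumour 2, 37.8% of all counts fell on 3 genes that hold ribosomal sequence. Rosa26 tumour 4 was the other tumour with a large ribosomal share, and the remaining 9 had 1.34% to 7.38%. The 10 skeletal muscle markers took 4.16% of counts in Rosa26 tumour 1 and at most 0.251% in any other tumour. At the engineered loci, Atf1 was 37.0 to 73.3 CPM in the translocation tumours and 21.3 to 27.3 CPM in the Rosa26 tumours. The Rosa26 transcript Gt(ROSA)26Sor was 7.92 to 26.9 and 0.442 to 6.35 CPM, so the groups did not overlap for either gene. By Xist and Y-linked genes, translocation tumours 1 to 4 and Rosa26 tumours 1 and 4 were female and the other 5 tumours male. Titles of translocation tumours 2 and 5 share a number but these tumours differ in sex, so they come from different animals. Titles of Rosa26 tumours 5 and 6, both male, differ only in the last digit, and those of translocation tumour 1 and the muscle share a number, and the labels do not say whether either pair shares an animal.

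Gfra1, the co-receptor preferred by Gdnf (ENSMUSG00000025089, chromosome 19, 58235604 to 58455909, minus strand, mm10), was the member with the highest level in the series. It was 49.6, 82.2, 68.0, 106.97 and 57.4 CPM in translocation tumours 1 to 5. In Rosa26 tumours 1 to 6 it was 221, 1298, 1283, 572, 997 and 821 CPM. Every Rosa26 tumour lay above every translocation tumour, with Rosa26 tumour 1 closest. The means were 72.8 ± 22.7 CPM (SD, n = 5) and 865 ± 420 CPM (SD, n = 6), or 11.9 times as much in the Rosa26 tumours. The fitted log2 fold change, Rosa26 over translocation, was 3.57 ± 0.49 (SE), and over 21 alternative fits it ran from 2.99 to 3.77. Ranked by mean CPM per kb of exon over 22028 protein-coding genes, Gfra1 was at place 129 in the Rosa26 tumours and at place 3036 in the translocation tumours. These values led to the choice of the family and are a description. In bulk tissue, a change in the number of cells that express a gene and a change in the RNA of each such cell cannot be told apart.

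The Gfra1 level varied 5.88-fold within the Rosa26 tumours and 2.16-fold within the translocation tumours. Rosa26 tumours 1 and 4, at 221 and 572 CPM, were the lowest of their group. Tumour 1 also had the largest skeletal muscle share of that group, tumour 4 the largest ribosomal share, and these were its only females. The part of these features in the Gfra1 level was not tested. Within the females Gfra1 was 49.6 to 106.97 CPM in 4 translocation tumours and 221 and 572 CPM in the Rosa26 tumours. Within the males it was 57.4 CPM in translocation tumour 5 and 821 to 1298 CPM in 4 Rosa26 tumours. With sex as a covariate the fitted log2 fold change was 2.99.

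**Figure D1:**
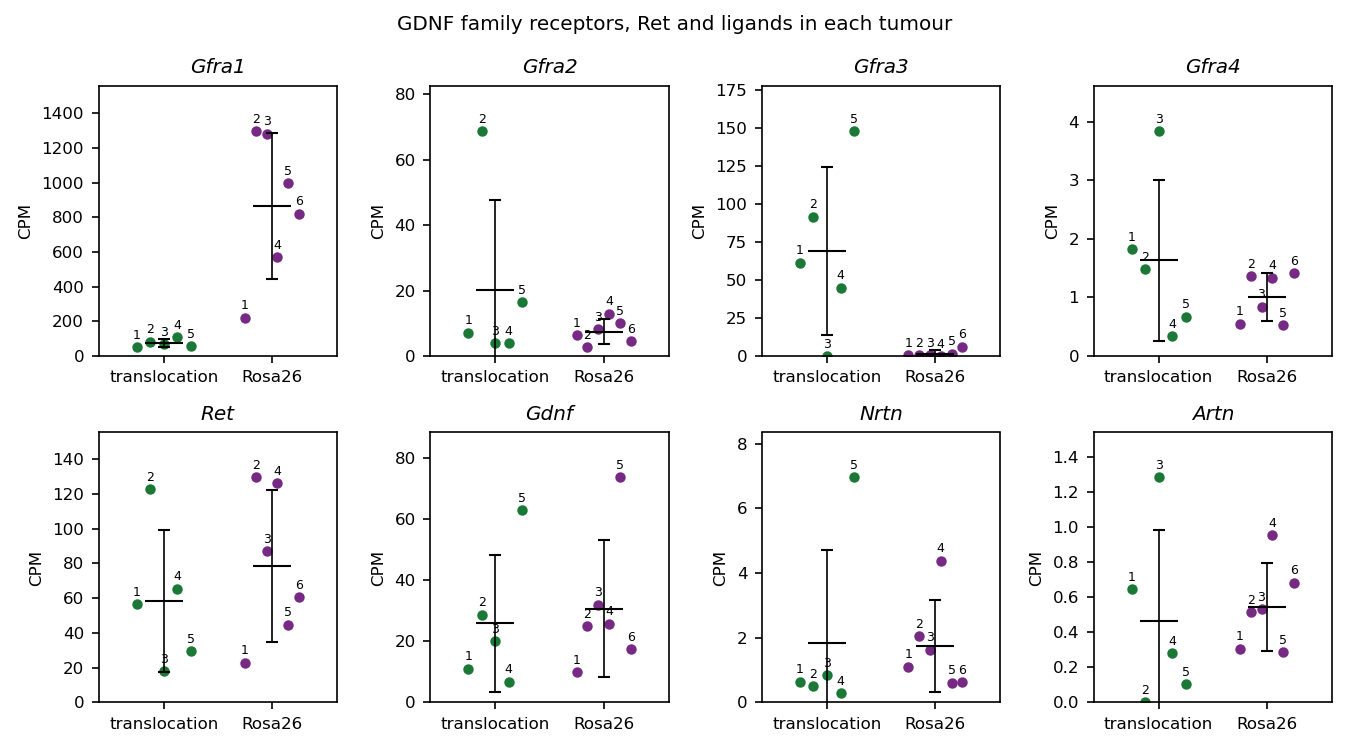
TMM-scaled CPM of the 8 members (y axis, linear, own scale in each panel) in each translocation tumour (green) and each Rosa26 tumour (purple), numbered by replicate; horizontal bars are means and whiskers are SDs (n = 5 and n = 6). Gfra1 does not overlap between the groups, while Ret and the ligand genes do.

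Ret, the kinase through which the co-receptors signal (ENSMUSG00000030110, chromosome 6, 118151745 to 118197718, minus strand), did not show the Gfra1 pattern. It was 56.4, 123, 18.1, 65.4 and 29.4 CPM in translocation tumours 1 to 5. In the Rosa26 tumours it was 22.9, 130, 87.2, 126, 44.9 and 60.7 CPM. The ranges overlapped almost fully, and 2 Rosa26 tumours lay above the highest translocation tumour. The means were 58.4 ± 40.8 CPM (SD, n = 5) and 78.6 ± 43.6 CPM (SD, n = 6). The log2 fold change was 0.44 ± 0.53 (SE), with a 95% interval of -0.71 to 1.58, and did not pass edgeR's quasi-likelihood test (Benjamini-Hochberg adjusted p = 0.648). It was 0.21 to 0.88 over the 21 alternative fits, none of which called it. A Ret difference of up to 1.58 on the log2 scale is within that interval, and whether the Ret and Gfra1 differences are unequal was not tested.

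The ratio of Gfra1 to Ret is given as a description, since Gfra1 chose the family. On CPM per kb of exon, Gfra1 was 0.827 to 4.64 times Ret in the translocation tumours. In the Rosa26 tumours it was 5.59 to 27.4 times Ret, lowest in tumour 4 and highest in tumour 5. Only in translocation tumour 2 was Gfra1 below Ret. Rosa26 tumour 1 had both the lowest Gfra1 and the lowest Ret of its group, at a ratio of 11.9, close to the 12.4 of Rosa26 tumour 2, which had the highest of both. With the length of the longest transcript in place of the union of exons, the ratios ran from 0.787 to 4.42 and from 5.32 to 26.1.

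**Figure D2:**
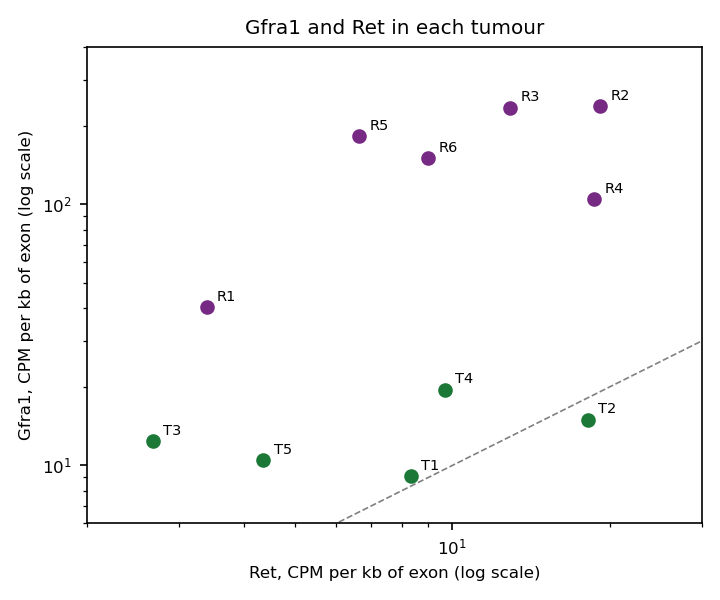
Gfra1 (y axis) against Ret (x axis) in each tumour, both in CPM per kb of exon on log scales; T marks translocation and R Rosa26 tumours, and the dashed line marks equal levels. The Rosa26 tumours sit at 5.59 to 27.4 times the line and the translocation tumours at 0.827 to 4.64 times it, over overlapping Ret levels.

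Gfra3, the co-receptor of artemin (ENSMUSG00000024366, chromosome 18, 34689898 to 34720387, minus strand), was distributed the other way round. It was 61.3, 91.6, 0, 44.9 and 148 CPM in translocation tumours 1 to 5. In Rosa26 tumours 1 to 6 it was 0.489, 0.598, 0.353, 0, 1.47 and 6.09 CPM. Thus 4 of 5 translocation tumours lay far above every Rosa26 tumour, and translocation tumour 3 had no count, with an exact 95% Poisson upper limit of 0.163 CPM. Rosa26 tumour 4 also had no count, with an upper limit of 0.703 CPM (counting error only). The means were 69.2 ± 55.1 CPM (SD, n = 5) and 1.499 ± 2.30 CPM (SD, n = 6). The log2 fold change of -5.46 ± 1.37 (SE, 95% interval -8.45 to -2.48) just missed the threshold (edgeR adjusted p = 0.0535). Without translocation tumour 3 it was -5.78 and passed (edgeR adjusted p = 0.0205). It also passed in 2 further fits, with sex as a covariate (-6.69, edgeR adjusted p = 0.0205) and by the DESeq2 Wald test (-5.51, adjusted p = 0.000484). With limma voom and quality weights it was -1.47 (adjusted p = 0.692).

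Gfra2, the co-receptor of neurturin (ENSMUSG00000022103, chromosome 14, 70890120 to 70979838, plus strand), was 7.09, 68.8, 3.98, 3.82 and 16.4 CPM in translocation tumours 1 to 5. In the Rosa26 tumours it ran from 2.65 to 13.0 CPM with a median of 7.27. Translocation tumour 2, the shallowest library, stood above all others, and the remaining tumours overlapped. The log2 fold change was -1.39 ± 0.74 (SE, 95% interval -3.00 to 0.22, edgeR adjusted p = 0.266). It was -0.08 without translocation tumour 2 (edgeR adjusted p = 0.946), so the value rests on that library. Gfra4 (ENSMUSG00000027316, chromosome 2, 131039632 to 131043088, minus strand) was scarce, at 0.338 to 3.84 CPM in the translocation and 0.530 to 1.42 CPM in the Rosa26 tumours. Its log2 fold change was -0.72 ± 0.60 (SE, 95% interval -2.04 to 0.59, edgeR adjusted p = 0.487), and it was -0.035 without translocation tumour 3 (edgeR adjusted p = 0.981).

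The mix of co-receptors was compared on CPM per kb, which allows for gene length. Gfra1 made up 94.6% to 99.3% of the summed level of the 4 co-receptors in the Rosa26 tumours. In translocation tumours 1, 2, 4 and 5 Gfra3 made up 72.1%, 56.6%, 52.0% and 82.8% of the sum, and Gfra1 21.3%, 18.5%, 45.1% and 11.7%. Translocation tumour 3 had no Gfra3 count and was the 1 translocation tumour with mostly Gfra1, at 81.1%, with 11.6% from Gfra4. Its summed level was 15.3 CPM per kb, the lowest of the 11 tumours. The sum was 42.6 to 89.6 CPM per kb in the other translocation tumours and 42.6 to 239 in the Rosa26 tumours, so Rosa26 tumour 1 matched translocation tumour 1 in amount but not in kind. Since Gfra1 chose the family, these shares are a description.

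**Figure D3:**
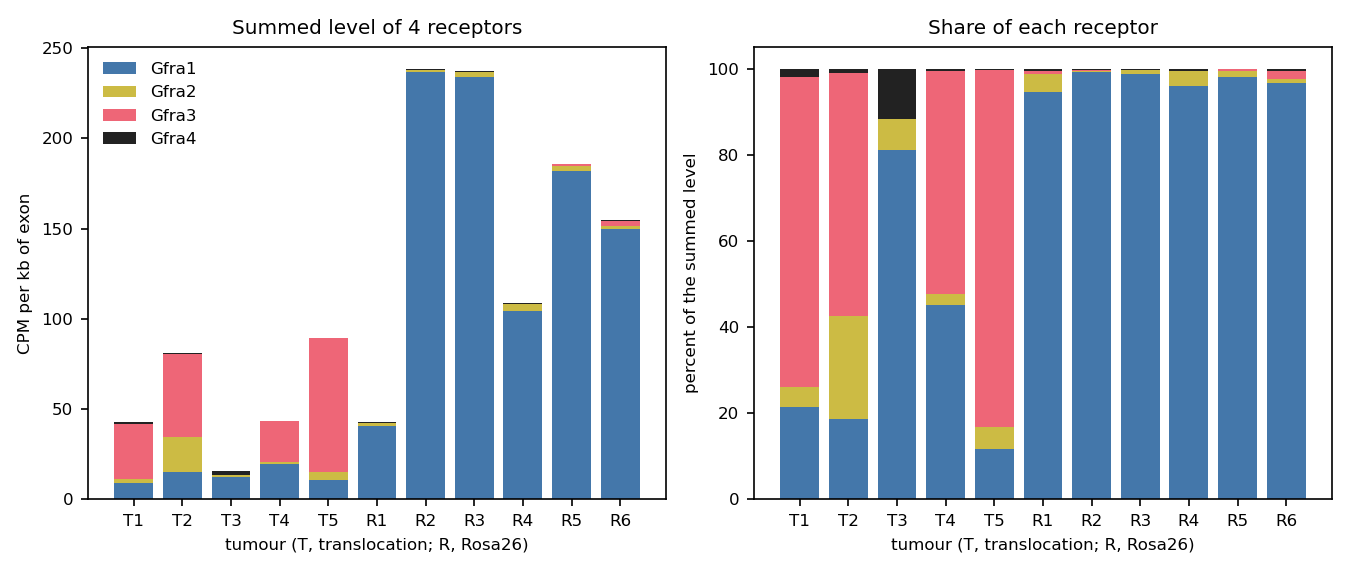
Summed level of Gfra1, Gfra2, Gfra3 and Gfra4 in CPM per kb of exon (left, y axis from 0) and the percent from each gene (right) for each translocation (T) and Rosa26 (R) tumour. Gfra3 makes up 52.0% to 82.8% in 4 translocation tumours, and Gfra1 makes up 94.6% to 99.3% in the Rosa26 tumours.

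Among the ligand genes, Gdnf (ENSMUSG00000022144, chromosome 15, 7810846 to 7837575, plus strand) had the highest level. It was 11.1, 28.7, 19.96, 6.81 and 62.9 CPM in translocation tumours 1 to 5. In the Rosa26 tumours it was 9.85, 25.03, 32.0, 25.7, 73.6 and 17.4 CPM. Each group had 1 high tumour, translocation tumour 5 and Rosa26 tumour 5, and the groups overlapped throughout. The log2 fold change was 0.24 ± 0.60 (SE, 95% interval -1.05 to 1.54, edgeR adjusted p = 0.838). Its sign was not stable, at -0.24 with sex as a covariate, -0.002 without translocation tumour 4 and -0.23 without Rosa26 tumour 5, and it was 0.91 without translocation tumour 5, 1.09 by limma voom and 1.33 without translocation tumours 2 and 5 and Rosa26 tumour 4. None of these fits called it.

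Nrtn and Artn were the scarcer ligand genes, and Artn had under 10 counts in 8 of 11 tumours. Nrtn (ENSMUSG00000039481, chromosome 17, 56751325 to 56757530, minus strand) was 0.645, 0.495, 0.839, 0.281 and 6.95 CPM in translocation tumours 1 to 5 and 0.611 to 4.38 CPM in the Rosa26 tumours. Translocation tumour 5 held 135 of the 166 translocation counts. The log2 fold change was -0.20 ± 0.84 (SE, 95% interval -2.03 to 1.63, edgeR adjusted p = 0.913), and it was 1.52 without translocation tumour 5 (edgeR adjusted p = 0.203). Artn (ENSMUSG00000028539, chromosome 4, 117926162 to 117929763, minus strand) held 42 counts over the translocation and 48 over the Rosa26 libraries. It was at most 1.28 CPM, in translocation tumour 3, which held 29 of those 42 counts and no count of Gfra3, its preferred co-receptor. In the 4 translocation tumours with Gfra3, Artn was 0 to 0.645 CPM.

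Apart from Gfra1, 0 of the 6 tested members passed the edgeR test, where 2.7% of all 17021 tested genes did, 1.56% higher and 1.14% lower in the Rosa26 tumours. At an unadjusted p under 0.05 the count was 1 of 6, Gfra3, where 24.8% of all tested genes were under it. None of the 6 had groups that did not overlap, as 5.18% of all tested genes had. The intervals of Ret, Gdnf and Nrtn leave room for differences of more than 1 on the log2 scale, so a miss does not show equal levels.

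On CPM per kb, the order of mean levels in the Rosa26 tumours was Gfra1 (158 ± 76.8), Ret (11.6 ± 6.45), Gdnf (8.33 ± 6.10), Gfra2 (2.11 ± 1.06), Nrtn (1.70 ± 1.38), Gfra3 (0.751 ± 1.15), Gfra4 (0.465 ± 0.193) and Artn (0.227 ± 0.104, SD, n = 6 for each). Gfra1 stood clear of Ret, since its lowest tumour, at 40.3, was above the highest Ret tumour, at 19.2. Below Gfra1, the ranges over tumours of neighbours in the order overlapped at every step. In the translocation tumours the order was Gfra3 (34.6 ± 27.6), Gfra1 (13.3 ± 4.14), Ret (8.64 ± 6.03), Gdnf (7.05 ± 6.08), Gfra2 (5.66 ± 7.84), Nrtn (1.80 ± 2.80), Gfra4 (0.754 ± 0.634) and Artn (0.192 ± 0.216, SD, n = 5 for each). There the ranges of all neighbours in the order overlapped.

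In the single muscle library, which gives no replicate check, all 8 members were low. On a TMM scale over all 12 libraries, Gfra1 was 1.95 CPM from 20 counts, and the tumours were 44.3 to 98.6 CPM (translocation) and 209 to 1200 CPM (Rosa26). Ret was 2.64 CPM from 27 counts in muscle, with every tumour higher, at 16.6 to 120 CPM. Gdnf was 3.42 CPM from 35 counts, again below all tumours (6.27 to 69.2 CPM). Gfra2 was 0.977 CPM from 10 counts, and the lowest tumour was at 2.45 CPM. Gfra3, at 0.488 CPM from 5 counts, was exceeded by 4 translocation and 3 Rosa26 tumours. For Gfra4, Nrtn and Artn, with 7, 9 and 3 counts in muscle, tumours lay on both sides. The muscle library itself carried its defining transcripts, with 269000 CPM on this scale over the 10 skeletal muscle markers. TMM scaling raised the muscle values, as 20 counts of Gfra1 out of 25037628 were given 1.95 CPM. Muscle values on this scale are therefore not shares of the library total. How many tumours lie above muscle for Gfra3, Gfra4, Nrtn and Artn may depend on the scale, which was not tested.

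The rest of the pathway was taken from a list of 47 genes chosen from general knowledge of GDNF and Ret signalling, of which 34 were tested. By edgeR's quasi-likelihood test 0 rose and 0 fell, where 2.7% of all tested genes passed. At an unadjusted p under 0.05 there were 7 of 34 (20.6%, against 24.8% of all tested genes). The DESeq2 Wald test called 3 of the 40 list genes it tested (7.5%), against 12.4% of all genes it tested. limma voom called 7 of 34 (20.6%), against 15.6% of all genes. The median log2 fold change of the list was 0.32, beside -0.07 over all tested genes. Of its 34 values 24 were positive, beside 7966 of all 17021. Only Cbl had groups that did not overlap, which is 2.94% of the 34 against 5.18% of all tested genes.

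Among the other ligands and receptors, Pspn (persephin) and Gfral, the brainstem receptor of Gdf15, held almost no counts, at most 0.105 and 0.215 CPM in any tumour. The syndecan gene Sdc3, whose heparan sulphate chains bind GDNF, was 43.6 to 717 CPM in the translocation and 153 to 1096 CPM in the Rosa26 tumours (log2 fold change 1.29 ± 0.64, SE, edgeR adjusted p = 0.238). Sorl1, a sorting receptor that takes up GDNF with Gfra1, had 1.55 ± 0.60 (SE, edgeR adjusted p = 0.141), with Rosa26 tumour 1 at 127 CPM and the other tumours at 6.49 to 46.7 CPM. Without that tumour it was 0.91 (edgeR adjusted p = 0.266). Ncam1, an adhesion molecule that serves as a receptor for GDNF with Gfra1 in the absence of Ret, had -0.85, and Lrig1, an inhibitor of Ret activation, 0.39. Sorl1 passed with sex as a covariate (2.16, edgeR adjusted p = 0.0264), and Sdc3 in limma voom (1.39, adjusted p = 0.0493).

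Of the 20 adaptors and effectors of Ret, 19 were tested, 14 had positive values and none passed. Of all 17021 tested genes, 7966 had positive values and 2.7% passed. Src, the membrane-associated kinase, was 7.98 to 40.6 CPM in the translocation and 30.2 to 148 CPM in the Rosa26 tumours, with 5 of 6 Rosa26 tumours above every translocation tumour. Its log2 fold change of 1.72 ± 0.45 missed the threshold (SE, edgeR adjusted p = 0.0599) and passed in 5 of 21 alternative fits. Among them were the fit without Rosa26 tumour 1 (1.89, edgeR adjusted p = 0.0405) and that with translocation tumours 2 and 5 summed (1.87, edgeR adjusted p = 0.0441). The summed fit joins different animals. Cbl, a ubiquitin ligase that lowers activated Ret, was 71.7, 88.6, 69.7, 74.3 and 28.3 CPM in translocation tumours 1 to 5 and 94.2 to 173 CPM in the Rosa26 tumours. Its log2 fold change was 1.04 ± 0.30 (SE, edgeR adjusted p = 0.0736), and it passed in 3 of 21 alternative fits. The neural adaptor gene Shc3 had 3.10 ± 1.32 (SE, edgeR adjusted p = 0.172) and was singled out after its values were seen. It was 0 to 33.5 CPM in the translocation and 17.9 to 227 CPM in the Rosa26 tumours. Grb10, with 1.30 ± 0.49 (SE, edgeR adjusted p = 0.133), had a smaller adjusted p than Shc3. The general adaptors Shc1, Grb2 and Frs2 had 0.03, 0.30 and 0.35. The negative values were those of Dok5 (-1.81 ± 0.83, SE, edgeR adjusted p = 0.202), Dok1 (-0.67), Dok4 (-0.55), Grb7 (-0.32) and Ptprf (-0.21).

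Genes known to respond to Gdnf and Ret in the developing kidney, together with ERK feedback genes, gave 9 tested genes. None was called, where 2.7% of all tested genes were. Wnt11, a signal of the branching ureteric bud, was 0.721 to 11.9 CPM in the translocation and 8.64 to 60.6 CPM in the Rosa26 tumours (log2 fold change 2.50 ± 0.77, SE, edgeR adjusted p = 0.0831). It passed in 4 of 21 alternative fits, among them that with translocation tumours 2 and 5, which are different animals, summed (3.03, edgeR adjusted p = 0.0417). The ETS factor genes Etv4 and Etv5 had 0.10 and -0.42, the ERK phosphatase gene Dusp6 0.27, and the ERK pathway inhibitor genes Spry1, Spry2 and Spry4 0.55, -0.83 and 0.21. The chemokine receptor gene Cxcr4 had -0.54 ± 0.31 (SE, edgeR adjusted p = 0.302) and passed in limma voom alone (-0.84, adjusted p = 0.0241).

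Transcription factor genes of lineages that express Ret had few counts, and 1 of 10, Gata3, was tested. Gata3 was highest in Rosa26 tumour 1, at 12.2 CPM. Its log2 fold change was 0.63 ± 1.33 (SE) with an edgeR adjusted p of 0.81, and it was -0.83 without that tumour. Phox2a, a regulator of autonomic neurons, reached at most 1.21 CPM. Sox10, a regulator of neural crest cells, reached at most 1.98 CPM. Nkx2-1, a thyroid and lung factor, had no count in any tumour, and the kidney factor Pax2 reached at most 0.177 CPM.

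**Figure D4:**
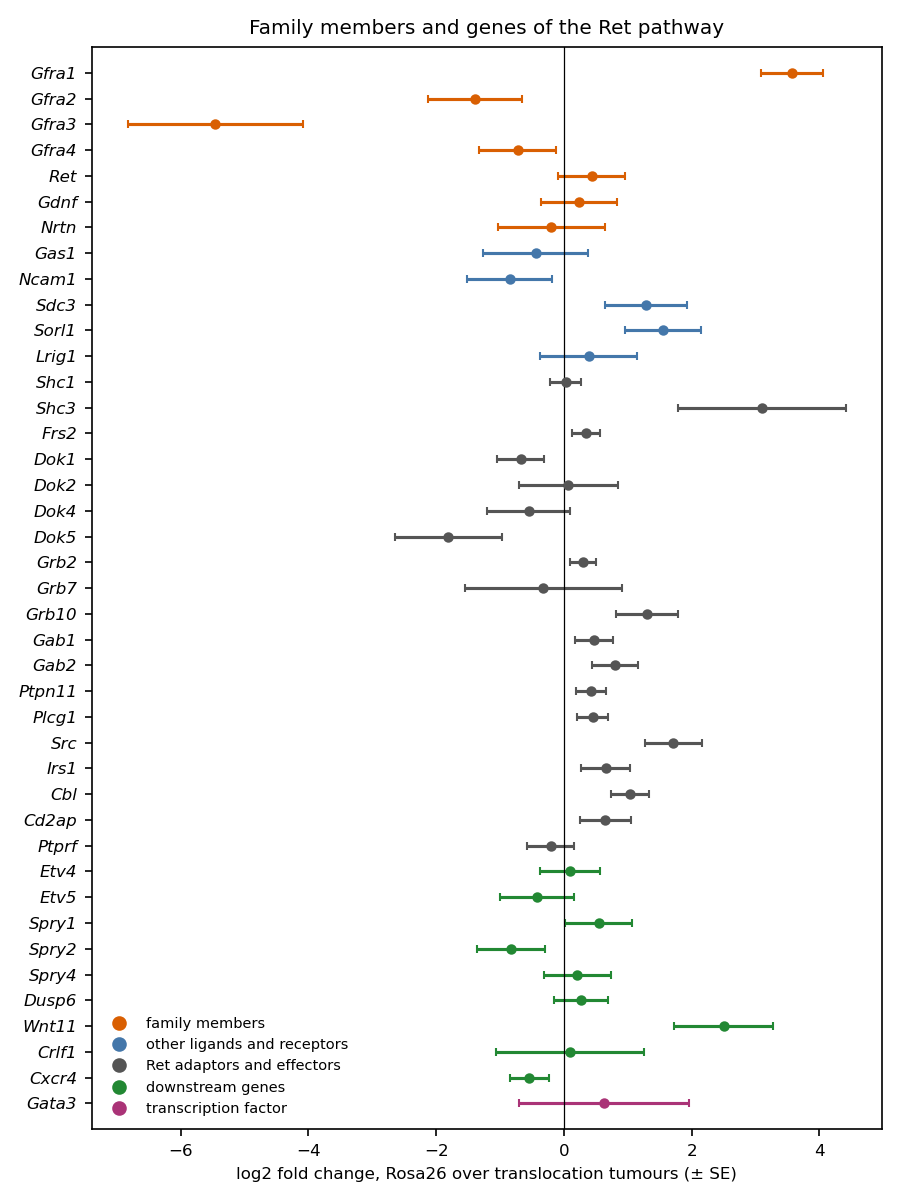
Log2 fold change, Rosa26 over translocation tumours (x axis; points are fitted values, whiskers are SEs from the fit over 11 tumours), for 7 tested members and 34 tested pathway genes. Gfra1 at 3.57 and Gfra3 at -5.46 lie farthest from 0 among the members, and Ret at 0.44 lies near 0.

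Markers of other cell types were examined beside Gfra1. The 9 neuronal markers summed to 82.2 to 228 CPM in the translocation and 111 to 722 CPM in the Rosa26 tumours. Rosa26 tumours 4 and 1, lowest in Gfra1, were also lowest in this sum, at 111 and 153 CPM. The sum was carried by Map2, at 19.0 to 64.4 CPM in the translocation and 58.7 to 314 CPM in the Rosa26 tumours, Stmn2, at 0.206 to 54.2 and 16.2 to 325 CPM, and Tubb3, at 7.41 to 202 CPM in the translocation and up to 91.9 CPM in the Rosa26 tumours. The synaptic genes Snap25 and Syt1 were 0.103 to 5.51 and 0 to 29.3 CPM in the translocation tumours. In the Rosa26 tumours Snap25 was 4.19 to 46.7 CPM and Syt1 3.5 to 15.6 CPM. Elavl4 was 0 to 6.33 CPM in the translocation and 0.572 to 5.35 CPM in the Rosa26 tumours. The neurofilament genes Nefl and Nefm and the neuronal nuclear gene Rbfox3 reached at most 1.31, 1.15 and 3.84 CPM, and of 7 tested neuronal markers 0 were called. The 9 Schwann cell and neural crest markers summed to 119 to 552 CPM in the translocation and 119 to 232 CPM in the Rosa26 tumours, carried in the translocation tumours by Pmp22 (71.7 to 360 CPM), S100b (27.8 to 83.7 CPM) and Cdh19 (0.36 to 93.1 CPM), with Sox10 at most 1.98 CPM. The 7 fibroblast markers summed to 238 to 23900 and 5710 to 107000 CPM, highest in Rosa26 tumour 4. In the same order of groups, the sum was carried by the collagen genes Col1a1 (46.6 to 6080 and 1430 to 53700 CPM), Col1a2 (69.8 to 13000 and 2350 to 40900 CPM) and Col3a1 (97.1 to 4450 and 659 to 12300 CPM). Pdgfra was 5.05 to 81.0 and 4.32 to 69.0 CPM, and Dcn 9.68 to 186 and 27.0 to 202 CPM. Lum was 0 to 176 and 11.5 to 165 CPM, and Pdgfrb 8.86 to 57.4 and 21.8 to 89.4 CPM. Of the tested markers in the Schwann cell and fibroblast lists 0 were called, as in the neuronal list, where 2.7% of all tested genes were. The 7 melanocyte markers summed to 514 CPM in translocation tumour 5, carried by Dct (332 CPM) and Mitf (180 CPM). They summed to 10.5 to 45.0 CPM in the other translocation tumours and 17.2 to 56.7 CPM in the Rosa26 tumours. Tyr, Tyrp1, Slc45a2 and Pmel reached at most 0.495, 0.0442, 0.107 and 3.65 CPM in any tumour, and Mlana was at 0 in every tumour. The part of these cell types in the Gfra1 difference was not tested.

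Over the 11 tumours, 6 genes had profiles most like that of Gfra1 among 11520 genes whose Rosa26 mean reached 5 CPM, leaving out the members and genes with provisional clone names. That filter used the group in which Gfra1 is high, and Cacnb4, Prss12 and Nog, with translocation means of 4.59, 1.61 and 4.45 CPM, reached 5 CPM only there, so the list is a description. Likeness was the root mean square difference of log2 CPM after each gene was centred on its mean, so that 0 is an identical profile. The genes were Hbegf, a ligand of the EGF receptor (0.55), Cacnb4, a calcium channel subunit (0.56), Myh10, a nonmuscle myosin heavy chain (0.57), Prss12, the serine protease neurotrypsin (0.65), Nog, the BMP antagonist noggin (0.67), and Cited2, a transcriptional coregulator (0.67). Hbegf, for example, was 9.01 to 24.8 CPM in the translocation and 43.4 to 186 CPM in the Rosa26 tumours. Within the family, Ret was at 1.65, Gdnf at 1.82 and Gfra3 at 4.96. Of the 11520 genes, 2163, 4190 and 11509 were closer to Gfra1 than Ret, Gdnf and Gfra3. Low counts add to the distance of a scarce gene.

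**Figure D5:**
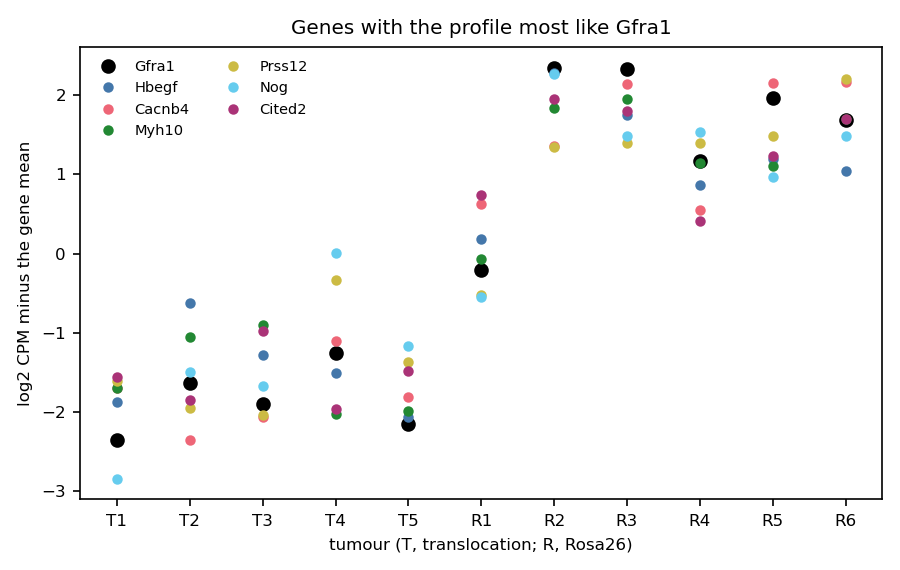
Log2 CPM minus the mean of each gene (y axis) in each translocation (T) and Rosa26 (R) tumour for Gfra1 (black) and the 6 genes with the smallest root mean square difference from it, 0.55 to 0.67. Rosa26 tumour 1 lies below the other Rosa26 tumours in Gfra1.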

How the data were processed

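The authors deposited whole-number counts per Ensembl gene, not normalized. Tools named in the submitters' processing notes, without role or order, are featureCounts, STAR 2.7.5a, RSEM, DESeq2 and cutadapt, and the build is mm10. The kit kept strand, per the labels' protocols, but whether counting used it, and which annotation release it used, is not given in the sources. Symbols, positions and exon lengths came from GENCODE M21 (mm10). Gfra1 overlaps the antisense gene Gm16277, which held 3 counts over 12 libraries.

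Tumours were compared with edgeR 4.0.16 in R 4.3.3 on counts, with TMM scaling, filterByExpr at a minimum count of 10 and robust quasi-likelihood tests over 17021 genes, adjusted by Benjamini-Hochberg at 0.05. Fold changes are Rosa26 over translocation. CPM per kb used the union of exons. Alternatives were the Wald test of DESeq2 1.42.0, its size factors in edgeR, limma 3.58.1 voom with quality weights, other filters, muscle in the fit, summed libraries, sex as a covariate, left-out libraries and the longest transcript as length. The scripts were tested on simulated data. Some items of the lists are not reported here.

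The members and lists were chosen with earlier results of these data known. The text names all members, then per pathway sublist the called genes (up to 6 by adjusted p) and up to 2 more by smallest p, and the 6 genes most like Gfra1. Further pathway genes were named for their role, or, for Shc3, Grb10 and the adaptors with negative values, after values were seen. Each group held animals of both sexes, but the labels do not say whether all samples are separate animals. The spread behind the p-values is therefore that of these samples alone and may be partly technical. No pair of libraries within a group agreed within sampling noise (smallest median chi-square per gene 4.74, against 0.455 for noise alone). Pairs with translocation tumour 5 gave 21.9 to 54.3, the other translocation pairs 4.74 to 12.1 and the Rosa26 pairs 4.86 to 19.9. Translocation tumour 5 thus stood apart from its group by this value, which also grows with depth. Poisson limits and floors for low counts cover counting error only. Intervals of fold changes come from the fit over tumours and so also reflect the spread between these samples.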

Additional observations from a re-analysis of the deposited data

Results flagged for a closer look

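In 30 groups of 5 or 6 tumours (8 members and 7 pathway genes in both genotypes) the highest or lowest sample was compared with the rest, and 7 groups had a sample whose gap to its neighbour was large against the range of the group. Chance alone marks about 1 group in 20 only where values are normally distributed. That was not tested for these CPM values, which were used without a log, so 7 of 30 is not measured against chance. Each marked sample was the highest of its group. Depth and tumour are shared between genes. Gfra2 was 68.8 CPM in translocation tumour 2, against 3.82 to 16.4 CPM in the rest of its group. Gfra3 was 6.09 CPM in Rosa26 tumour 6, against 0 to 1.47 CPM. Gdnf was 73.6 CPM in Rosa26 tumour 5, against 9.85 to 32.0 CPM. Nrtn was 6.95 CPM in translocation tumour 5, against 0.281 to 0.839 CPM. Sorl1 was 127 CPM in Rosa26 tumour 1, against 12.3 to 46.7 CPM. Gata3 was 9.41 CPM in translocation tumour 2, against 0.0442 to 1.72 CPM, and 12.2 CPM in Rosa26 tumour 1, against 0.342 to 2.48 CPM.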

How the results depend on the processing

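Over all genes, 460 passed in the reported fit. The count was 2566 by the DESeq2 Wald test, 2651 by limma voom, 91 with Rosa26 tumours 5 and 6 summed, 815 with translocation tumours 2 and 5 summed and 2549 with sex as a covariate. Translocation tumours 2 and 5 differ in sex and come from different animals, so their sum does not stand for 1 sample. With 1 tumour left out it ran from 63 (without Rosa26 tumour 3) to 744 (without translocation tumour 5). It was 112 when translocation tumour 1 was dropped, and 262, 123 and 75 when Rosa26 tumours 4, 5 and 6 were dropped in turn. Of the pathway list, 0 passed in the reported fit, against 3 by DESeq2, 7 by limma voom, 2 with translocation tumours 2 and 5 summed, 5 with sex as a covariate and 0 to 1 with 1 tumour left out (1 without Rosa26 tumour 1). The sign turned for Gfra2 in limma voom (0.17) and without translocation tumours 2 and 5 and Rosa26 tumour 4 (0.37), for Nrtn in the same fits (0.77 and 1.02), and for Gdnf with sex as a covariate (-0.24). With 1 tumour left out Nrtn ran from -0.72 to 1.52, Gdnf from -0.23 to 0.91 and Gata3 from -0.83 to 2.61. The causes were not tested. Ret, Gfra3 and Gfra4 kept their sign in all 21 alternatives. Gfra1 did too, which is a description only, since its difference chose the family. Levels per kb with the longest transcript differed from those reported by less than 1 SD for all 8 members in the Rosa26 tumours. Counts under 10 in some libraries limit Nrtn, Artn and Gfra4, and Gfra3 in the Rosa26 tumours. No paired analysis was possible because no number in the titles is shared between the translocation and Rosa26 tumours.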
